A study of Caenorhabditis elegans with 10 samples.

Results

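The change in mRNA levels between the first and the third day at 4°C was examined gene by gene in whole wild-type *C. elegans*. The members are those genes whose FPKM reached 1 or more in any of 5 conditions, which were 10509 of the 19985 genes in the deposited values. FPKM, fragments per kilobase of transcript scaled to library size, is a level corrected for transcript length and for the reads of the library. Each gene takes the values of 1 transcript, that of the highest mean level. The change is the log2 ratio of FPKM + 0.1 at day 3 to FPKM + 0.1 at day 1, so that 1 is a doubling and -1 a halving, and the added 0.1 makes the changes of low genes look smaller. A gene is said to have risen or fallen when it passed 2-fold.

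All animals were of the N2 strain, the standard wild type, with no transgene or mutant allele, and were raised from synchronized larvae at 20°C to the first day of adulthood. They were then collected at 20°C, after a step at 10°C, or after that step and 1 day (day 1), 3 days (day 3) or 5 days (day 5) at 4°C. The labels give 2 samples for each condition, 10 in all, and RNA came from the lysates that were also used for ribosome profiling. The step at 10°C lasted 2 hr by the protocol and 3 hr by the treatment labels; the last condition is 5 days by its titles and 3 days by its treatment labels, and is called day 5 here. No group stayed at 20°C while others were cooled, so time in the cold and age cannot be told apart.

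The deposited values hold 1 column for each condition. Each column is taken to pool both samples, which is not stated, and all levels below are the authors' values with no error between replicates. No difference could be set against the spread between animals, and no p-value is given. Multiplied by transcript length, 100% of the values in each column were whole reads, within 0.01 of a read. The columns held from 70741449 reads on transcripts (day 5) to 85103831 (day 1), in which a read counts once for each transcript it overlaps. Limits in brackets come from 95% Wilson limits of these reads and cover counting error only. For a ratio they set the limit of each day against the opposite limit of the other day. They are thus wider than 95% limits of the ratio itself.

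Small heat shock proteins hold unfolding proteins in solution, and HSP70 proteins refold them. In worms some genes of both kinds, but not all, are induced by heat through the factor HSF-1. Worms build long and branched fatty acids with elongases, break fatty acids down in mitochondria and peroxisomes, and carry lipids on small binding proteins, with much of this metabolism in the intestine. The cuticle, a sheath of collagens, is made by the hypodermis.

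From day 1 to day 3 at 4°C, 165 genes rose (1.57% of all tested) and 489 fell (4.65%). The genes that rose included *nspe-7*, with the largest ratio, several genes without a name, small heat shock genes, some glutathione S-transferase genes and the metallothionein gene *mtl-1*. The genes that fell included *pud-1.1*, with the largest ratio, some cuticle collagen genes, and genes that elongate, bind or break down fatty acids. The median log2 ratio of all 10509 genes was -0.03, and the genes that neither rose nor fell were within 2-fold. Because FPKM is scaled to library size, a change in total mRNA would not be seen in these values. Of the genes that rose, 43 passed 4-fold and 10 passed 8-fold. Of those that fell, 81 passed 4-fold and 13 passed 8-fold.

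**Figure D1:**
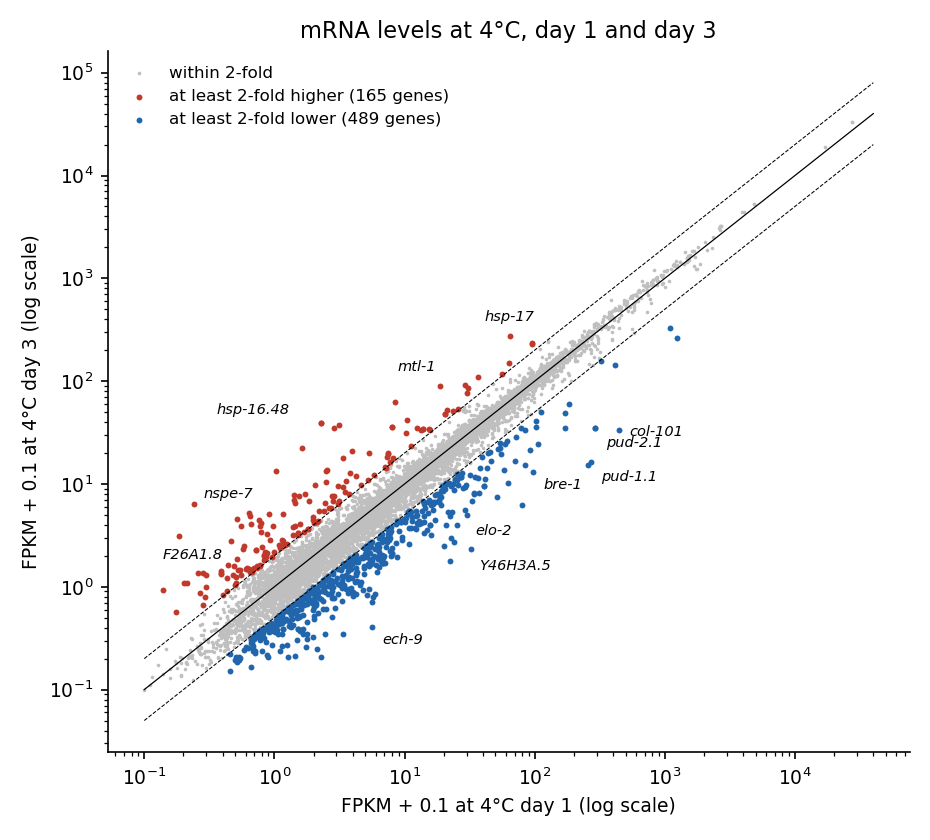
FPKM + 0.1 at 4°C day 1 (x axis) against day 3 (y axis), both on log scales, for 10509 genes, 1 point a gene. The solid line marks equal levels and the dashed lines 2-fold; 165 genes (red) lie on or above the upper line and 489 (blue) on or below the lower one, with *pud-1.1* and *nspe-7* farthest out.

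Fewer genes changed over these days than over the first day. From 10°C to day 1, 577 genes rose (5.49%) and 570 fell (5.42%), while the step from 20°C to 10°C had 133 genes higher (1.27%) and 98 lower (0.933%). From day 3 to day 5, 16 genes rose (0.152%) and 523 fell (4.98%). The split between rises and falls was thus near even on the first day at 4°C, whereas falls outnumbered rises between day 1 and day 3 and between day 3 and day 5.

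The genes that rose were low before cooling. Their median level was 0.81 FPKM at 20°C, 0.77 at 10°C and 1.33 at day 1, then 4.29 at day 3 and 3.42 at day 5. The genes that fell had a median of 4.57 FPKM at 20°C, 4.60 at 10°C and 3.96 at day 1, and of 1.37 at day 3 and 0.94 at day 5. Both sets lay below the median of all genes, which was 11.4 FPKM at day 1. The medians of the risen genes at 20°C and 10°C were under the filter of 1, which a gene could pass at 4°C alone. Choosing genes by a rise also favours low earlier levels. Calls of both kinds were more frequent among low genes. In the lowest of 10 groups by mean level 46 genes rose and 90 fell, and in the highest 5 and 16. At least 50 reads stood behind the higher of both days in 155 of the genes that rose and 458 of those that fell, against 9988 of all 10509 genes. The counting limits of the 2 days did not overlap in 163 and 481. These genes were chosen by a 2-fold difference between the same columns, and the share over all genes was not counted.

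Most of the falls were kept to day 5, and fewer of the rises. At day 5, 452 of the 489 fallen genes (92.4%, against 12% of all genes) were still at least 2-fold below day 1. A further 2-fold fall from day 3 was seen in 55 of the 489 (11.2%, against 4.98% of all genes). Of the 165 risen genes, 84 (50.9%, against 1.16% of all genes) were still at least 2-fold above day 1 at day 5. From day 3 to day 5, 41 of the 165 fell 2-fold (24.8%, against 4.98% of all genes). Compared with 20°C, 139 of the risen genes (84.2%) were at least 2-fold higher at day 3, and 352 of the fallen genes (72%) at least 2-fold lower. The share of all genes past 2-fold between 20°C and day 3 was not counted. All counts in this paragraph share the day 1 or day 3 column with the change that chose the genes, which favours them.

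Chromosome V held the largest share of called genes among the chromosomes, with 3.05% of its 1899 genes risen and 8.43% fallen. On chromosome I, 0.557% of 1794 genes rose and 2.17% fell. The X chromosome had 1.79% risen and 6.33% fallen, and none of the 12 genes of the mitochondrial genome passed 2-fold.

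Of 30 genes for cytosolic and small heat shock proteins that passed the filter, 7 rose (23.3%, against 1.57% of all genes) and none fell, and 28 were above 0, with a median log2 ratio of 0.31. The risen genes were *hsp-16.1*, *hsp-16.11*, *hsp-16.48*, *hsp-16.49*, *hsp-17*, *hsp-12.6* and *hsp-12.3*, all of them genes for small heat shock proteins.

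The FPKM of *hsp-16.48* was 1.72 at 20°C, 0.58 at 10°C, and 2.18, 39.3 and 18.7 on days 1, 3 and 5. Its log2 ratio from day 1 to day 3 was 4.12 [3.74, 4.49], from 80 and 1369 reads. The level was thus low until day 1, highest at day 3, and lower again at day 5. For *hsp-16.1* the FPKM was 2.27 at 20°C, 1.36 at 10°C, and 3.03, 37.6 and 24.7 on days 1, 3 and 5, a log2 ratio of 3.59 from day 1 to day 3. These genes lie side by side with *hsp-16.49* and *hsp-16.11* on chromosome V (WBcel235, 9087293 to 9090604). The values of *hsp-16.49* are identical to those of *hsp-16.48*, and *hsp-16.11* has the same 113 and 1326 reads at day 1 and day 3 as *hsp-16.1*. The reads of these copies were not told apart, and the 4 genes are 2 measurements.

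Set against 10°C, part of this rise lay on the first day. From 10°C to day 1 the log2 ratio was already 1.74 for *hsp-16.48*, 1.097 for *hsp-16.1* and 2.74 for *hsp-12.6*, while *hsp-12.3*, at 0.84, was within 2-fold. For *hsp-16.48* and *hsp-16.1* the level at 10°C was a dip. Against 20°C, day 1 was little higher, at 2.18 after 1.72 FPKM for *hsp-16.48* and 3.03 after 2.27 for *hsp-16.1*. *hsp-17* stood at 15.4 FPKM at 20°C, 16.07 at 10°C, and 64.3, 276 and 122.8 on days 1, 3 and 5, with a log2 ratio of 2.102 from day 1 to day 3. It had the highest level of the risen heat shock genes in every condition. *hsp-12.6*, which in worms is also a target of the insulin-pathway factor DAF-16, had 0.47 FPKM at 20°C, 0.40 at 10°C, and 3.27, 17.6 and 29.6 on days 1, 3 and 5, a log2 ratio of 2.39. Its level was higher in each later condition at 4°C. The lower *hsp-12.3* rose by a log2 ratio of 1.39, from 1.47 to 4.00 FPKM. *hsp-16.2* had 14 reads at day 1 and 27 at day 3, and its ratio of 0.88 [-0.23, 1.95] did not pass 2-fold.

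Genes of the HSP70 family were divided. *F44E5.4* and its neighbour copy *F44E5.5*, both of the HSP70 family, were not in the list but passed 2-fold. *F44E5.4* had 0.77 FPKM at 20°C, 0.42 at 10°C, and 7.90, 35.8 and 42.5 on days 1, 3 and 5, a log2 ratio of 2.17. Its 1409 and 6051 reads at day 1 and day 3 are nearly those of *F44E5.5*, so the pair counts as 1 measurement. *hsp-70*, a heat-inducible gene, stayed under the filter with 4 reads at day 1, 37 at day 3 and 34 at day 5. *hsp-16.41* was also under it, with 4, 29 and 40 reads on these days.

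The abundant chaperones moved little. *hsp-1*, the constitutive HSP70 protein, had 1212 FPKM at day 1 and 1485 at day 3, a log2 ratio of 0.29. *hsp-90* had 1020 and 1176 FPKM (0.21), and *hsp-110* 117 and 140 (0.25). None of these passed 2-fold. All 8 *cct* genes, the subunits of the cytosolic chaperonin, were above 0 with a median of 0.34 and none past 2-fold. The mRNA of *hsf-1*, the factor named above, was at 29.5 FPKM at day 1 and 31.3 at day 3, a log2 ratio of 0.09. *hsp-25* was below 0, at -0.45.

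**Figure D2:**
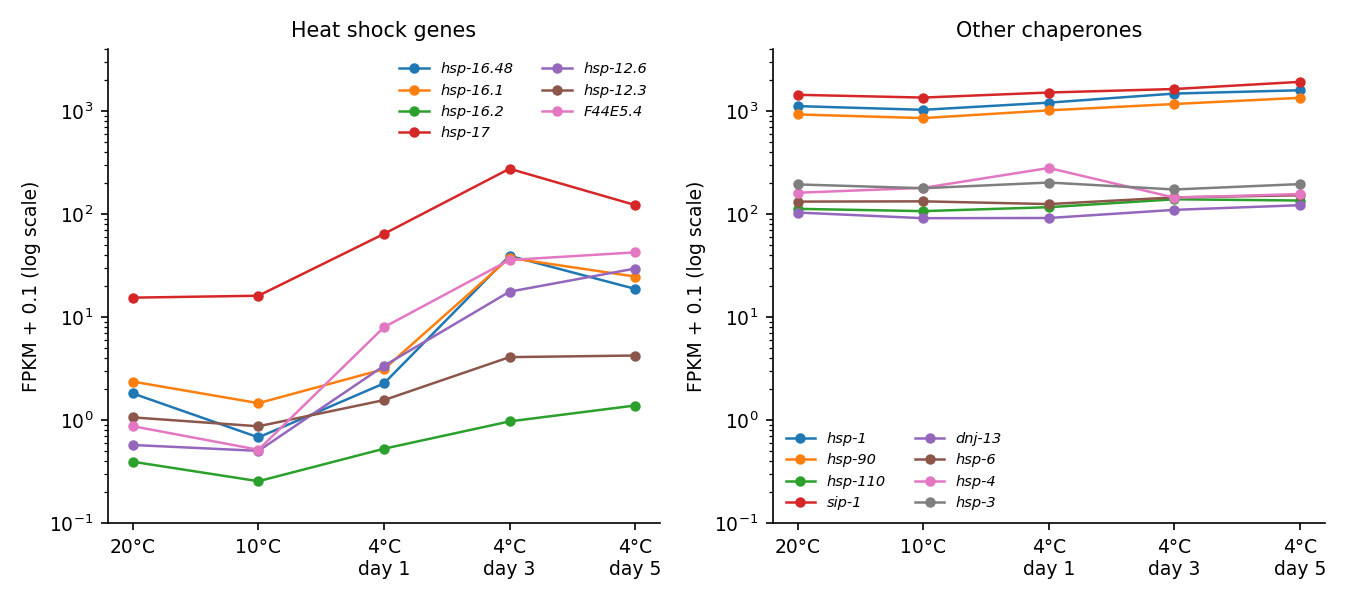
FPKM + 0.1 (log scale) in each of the 5 conditions for heat shock genes (left) and other chaperones (right), 1 point a pooled column. On the left, *hsp-16.48* and *hsp-16.1* lie near or below 3 FPKM until day 1 and above 37 at day 3; on the right, the cytosolic chaperones stay nearly level and *hsp-4* has its highest value at day 1.

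The glutathione S-transferases, which couple glutathione to reactive compounds, went both ways. Of 29 genes, 6 rose and 3 fell, with a median of 0.01. Of the risen genes, 3 neighbours, *gst-14*, *gst-12* and *gst-16*, lie on chromosome II (13614781 to 13624440). *gst-14* had 0.27 FPKM at 20°C, 0.51 at 10°C, and 0.53, 5.11 and 4.33 on days 1, 3 and 5, a log2 ratio of 3.04 [2.45, 3.61]. Day 3 was thus the first condition in which *gst-14* was high. *gst-12* (2.20) and *gst-16* (1.92) had both been raised at day 1 as well. *gst-4*, a common reporter of the oxidative stress factor SKN-1, had 7.11 FPKM at 20°C, 6.21 at 10°C, and 25.5, 53.2 and 20.4 on days 1, 3 and 5, a log2 ratio of 1.06. *gst-30* (1.89) and *gst-5* (1.31) also rose. *gst-24*, which had been among the largest rises of the first day, had 47.4 FPKM at day 1 and 94.5 at day 3 and stood just under the threshold. The falls were *gst-26* (-1.70), *gst-42* (-1.60) and *gsto-1* (-1.33).

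The metallothionein *mtl-1*, a small metal-binding protein of the intestine, had 3.91 FPKM at 20°C, 2.40 at 10°C, and 18.5, 90.6 and 45.3 on days 1, 3 and 5. Its log2 ratio was 2.29, and day 3 was its highest level. Of 20 metal-responsive genes, *mtl-1* alone rose. The 3 that fell were the zinc transporter gene *zipt-13* (-2.04) and the cadmium-responsive genes *cdr-4* (-1.30) and *cdr-2* (-1.29). The median of this list was -0.11. Of 11 genes for iron storage and uptake, *hrg-2* rose (1.12) from 0.63 to 1.495 FPKM and none fell; the ferritin gene *ftn-1* had 3.16 FPKM at day 1 and 1.91 at day 3 (-0.70).

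Nuclear hormone receptors are ligand-regulated transcription factors, of which worms have a large family. Of the 101 that passed the filter, 7 rose (6.93%, against 1.57% of all genes) and 3 fell (2.97%, below the 4.65% of all genes). The median was 0.13, and 0.020 over those that reached an FPKM of 5 in any condition. *nhr-182* (1.63), *nhr-130* (1.49) and *nhr-61* (1.47) rose most. *nhr-61*, the most abundant of these, had 7.57 FPKM at 20°C, 7.32 at 10°C, and 12.4, 34.7 and 42.0 on days 1, 3 and 5. The others that rose were *nhr-109*, *nhr-212*, *nhr-35* and *nhr-137*, with log2 ratios between 1.04 and 1.14. The 3 falls were *nhr-247* (-2.73), *nhr-74* (-1.48) and *nhr-41* (-1.01).

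Several of the largest rises were in genes without a name. *K04A8.21* had 0.10 FPKM at 20°C, 0.15 at 10°C, and 8.32, 62.3 and 35.4 on days 1, 3 and 5, a log2 ratio of 2.89 after one of 5.06 on the first day. *H02F09.3* had 0.07, 0.09, 1.53, 22.3 and 11.95 FPKM in the same order, a log2 ratio of 3.78. Both were near 0 before 4°C and higher at day 3 than at day 1. *H02F09.2* (3.69) shares 52.3% of its exon bases with other annotated genes, mostly *H02F09.3*, and these are not separate rises. *F26A1.8* had 10 reads at day 1 and 333 at day 3 (4.06) and 0.76 FPKM at day 5 after 3.00 at day 3.

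*nspe-7*, of a nematode-specific peptide family, had the largest log2 ratio of all, 4.73 [3.58, 5.58], from 4 reads at day 1 and 170 at day 3. Its FPKM was 0.37 at 20°C, 0.14 at 10°C, and 0.14, 6.24 and 5.06 on days 1, 3 and 5. The neighbouring *nspe-1* and *Y38E10A.14* rose with it. *F40G12.5* (3.13), *Y71H2AM.25* (2.92), *F09C6.11* (2.81), *dao-6* (2.61) and *C54F6.6* (2.60) were each higher at day 5 than at day 3. *B0507.7*, with 3 reads at day 1 and 58 at day 3, had a log2 ratio of 2.72 [1.75, 3.36], and its fold rests on very few reads. *eol-1*, a homolog of the mammalian decapping nuclease DXO, had 0.07 FPKM at 20°C, 0.09 at 10°C, and 0.66, 4.41 and 8.36 on days 1, 3 and 5, a log2 ratio of 2.57.

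Risen genes also stood next to each other. There were 7 runs of at least 3 adjacent called genes, holding 24 risen genes, among them 5 *F09C6* genes on chromosome V (16878827 to 16885490). In a run, genes are adjacent among those past the filter, and genes under the filter may lie between them. The 24 include the *hsp-16* copies and the overlapping *H02F09.2* and *H02F09.3*. How many runs would be found among genes taken without regard to their change was not counted. The *nspa* genes had the highest median of the 128 name families with at least 8 genes: 6 of 8 rose, with a median of 1.26. They are near-identical short transcripts, *nspa-1* and *nspa-3* share all values, and their reads were not told apart. *nspa-6* and *nspa-7*, at 8.95 FPKM at day 1 and 17.97 at day 3, lay just below 2-fold.

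Among the falls, the copies *pud-1.1* and *pud-1.2* had the largest ratio, and other *pud* genes were among the 15 largest. These genes are named for proteins more abundant in mutants of the insulin receptor DAF-2. *pud-1.1* had 936 FPKM at 20°C, 630 at 10°C, and 271, 16.12 and 9.98 on days 1, 3 and 5. From day 1 to day 3 it fell by 4.06 on the log2 scale, from 10514 reads to 592. *pud-1.2* has nearly the same reads (10515 and 592) and the same ratio. *pud-2.1* and *pud-2.2*, identical in value, had 594 FPKM at 20°C, 426 at 10°C, and 293, 34.8 and 33.7 on days 1, 3 and 5, a log2 ratio of -3.07. Both pairs were thus among the abundant mRNAs before cooling, and their lowest levels were reached at day 3 and day 5. *pud-3* fell from 24.1 to 2.61 FPKM (-3.16). *pud-4* had 12.7 and 7.44 FPKM (-0.76) and did not pass 2-fold. *pud-1.2*, *pud-2.2* and *pud-3* form a run of fallen neighbours on chromosome V (2322038 to 2325152).

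Cuticle collagens had falls and no rise. Of 75 genes named *col*, 9 fell and none rose, and 62 were below 0, with a median of -0.50 against -0.03 for all genes. Without the filter, over 156 *col* genes, the median was -0.14. *col-101* had 611 FPKM at 20°C, 582 at 10°C, and 442, 33.5 and 22.2 on days 1, 3 and 5. It fell by 3.72 on the log2 scale from day 1 to day 3, with smaller decreases before and after. The neighbours *col-92*, *col-93* and *col-94* on chromosome III (10982139 to 10987873) had log2 ratios of -2.104, -2.27 and -2.11. *col-98* (-1.89), *col-133* (-1.62), *col-122* (-1.53), *col-103* (-1.16) and *col-116* (-1.07) also fell. Collagens with other names, of which 8 passed the filter, had a median of 0.03 and none past 2-fold, and the 3 measured furrow collagens, which form the annular grooves, lay between 0.01 and 0.10.

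Genes for moulting and the apical matrix had 8 falls and no rise among 50, with a median of -0.24, which was -0.029 without the filter and -0.99 over those that reached an FPKM of 5. All 8 were hedgehog-like or patched-related genes: *grd-5* (-2.12), *ptr-13* (-1.58), *grd-3* (-1.46), *grd-4* (-1.38), *grd-13* (-1.37), *grl-4* (-1.36), *ptr-8* (-1.18) and *ptr-20* (-1.11). In the narrower list of warthog, groundhog and patched-related genes, these 8 were 26.7% of 30. Markers of the hypodermis, where many of these genes are active, had a summed level of 2769 FPKM at day 1 and 2076 at day 3, with 6 of 8 past the filter. Of these 6, 1 was above 0 and none passed 2-fold, and their median of -0.51 was close to that of the *col* genes. The marker list itself holds *col-19*, *col-119* and *col-140*, so these medians rest in part on the same genes. The part of the hypodermis in these falls was not tested. In whole animals, fewer cells of a type and less RNA per cell cannot be told apart.

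Fatty acid genes made up the largest group of falls. Of 63 genes for fatty acid breakdown and peroxisomes, 21 fell (33.3%, against 4.65% of all genes) and none rose, with a median of -0.59 and 54 below 0. The median was -0.35 without the filter or with 1 added to the FPKM. The 6 acyl-CoA oxidase genes *acox-1.1* to *acox-1.6*, whose enzymes open peroxisomal oxidation and shorten the side chains of ascaroside pheromones, all fell, with log2 ratios from -1.34 to -2.05. *acox-1.5* had 7.51 FPKM at 20°C, 14.1 at 10°C, and 14.7, 3.47 and 1.67 on days 1, 3 and 5. *acox-1.1* had 13.04, 13.5, 7.28, 2.61 and 1.95 FPKM in the same order. *acox-1.5* was thus not lowered until after day 1, while *acox-1.1* was already lower at day 1 than at 10°C. The genes *acox-1.1* to *acox-1.4* are neighbours on chromosome I (12938555 to 12954003).

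*ech-9*, an enoyl-CoA hydratase gene, had a course of its own. Its FPKM was 0.28 at 20°C, 6.62 at 10°C, and 5.55, 0.30 and 0.31 on days 1, 3 and 5, a log2 ratio of -3.81 from day 1 to day 3. The level was thus high at 10°C and day 1 and near its 20°C value at day 3. *ech-7* (-1.59), *ech-8* (-1.04) and *ech-3* (-1.01) fell too, and all 9 *ech* genes were below 0. Of the acyl-CoA synthetase genes, which activate fatty acids, *acs-7* (-1.73), *acs-2* (-1.58), *acs-1* (-1.33), *acs-17* (-1.18) and *acs-5* (-1.16) fell. *acdh-2* (-1.70), *acox-3* (-1.19), *maoc-1* (-1.14), the catalase gene *ctl-2* (-1.31) and the peroxisome assembly genes *prx-3* (-1.26) and *prx-11* (-1.05) completed the group.

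Elongases fell after an earlier decrease. Of 24 elongase and fatty acid synthesis genes, 5 fell and none rose, with a median of -0.18. *elo-2*, which elongates palmitate, had 68.2 FPKM at 20°C, 88.6 at 10°C, and 30.1, 4.94 and 5.79 on days 1, 3 and 5, a log2 ratio of -2.58. *elo-6*, needed for branched-chain fatty acids, had 204, 188, 22.1, 4.83 and 4.27 FPKM in the same order, a log2 ratio of -2.17. *elo-5*, which acts with *elo-6*, had 137 FPKM at 20°C, 136 at 10°C, and 29.4, 9.71 and 9.97 on days 1, 3 and 5 (-1.59). All 3 were at least 2-fold lower at day 1 than at 10°C, fell again by day 3, and were nearly level from day 3 to day 5. *elo-9* (-1.47) and *acl-7* (-1.01) were the other falls.

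None of the 7 fatty acid desaturase genes passed 2-fold, although all were below 0, with a median of -0.11. *fat-2* had 116 FPKM at day 1 and 108 at day 3. *fat-6*, a stearoyl-CoA desaturase gene, had 77.5 FPKM at 20°C, 65.5 at 10°C, and 30.2, 22.2 and 25.1 on days 1, 3 and 5, so that most of its decrease lay on the first day. *fat-5* had a log2 ratio of -0.54 from 58 and 35 reads, and its limits, which are wide by construction, included 0 [-1.23, 0.16].

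Lipid-binding proteins had the highest share of falls among the lists of at least 10 genes: 5 of 14, with a median of -0.40 and none risen. *lbp-6* had 97.8 FPKM at 20°C, 96.3 at 10°C, and 62.7, 10.1 and 10.4 on days 1, 3 and 5, a log2 ratio of -2.62. *far-3* (-2.45), *lbp-5* (-1.76), *far-5* (-1.22) and *lbp-7* (-1.14) also fell. The *lbp* and *far* products bind fatty acids and, for the latter, retinol.

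Phosphatidylcholine synthesis genes had 1 fall and 1 rise among 15. *cept-1*, for the last step from CDP-choline or CDP-ethanolamine, had 8.39 FPKM at 20°C, 8.77 at 10°C, and 2.66, 0.81 and 0.49 on days 1, 3 and 5 (-1.60). *sams-1*, which makes the methyl donor S-adenosylmethionine, had 31.5, 22.8, 3.05, 6.69 and 1.70 FPKM in the same order. It rose by a log2 ratio of 1.11 after a fall on the first day, and was lower again at day 5. With 1 added to the FPKM in place of 0.1, the ratio of *sams-1* was 0.93, under 2-fold. Of 14 fat-mobilising lipase genes, *lipl-2* alone fell (-1.29), from 0.52 to 0.16 FPKM. Markers of the intestine, the main site of these pathways, had a summed level of 1575 FPKM at day 1 and 1416 at day 3, with all 10 past the filter. Of these 10, only 1 was above 0, the gut factor gene *elt-2* (0.65), and the median was -0.11. The acid phosphatase gene *pho-1* alone passed 2-fold (-1.24), and the gut esterase gene *ges-1* had a ratio of -0.99. The part of the intestine in these falls was not tested.

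**Figure D3:**
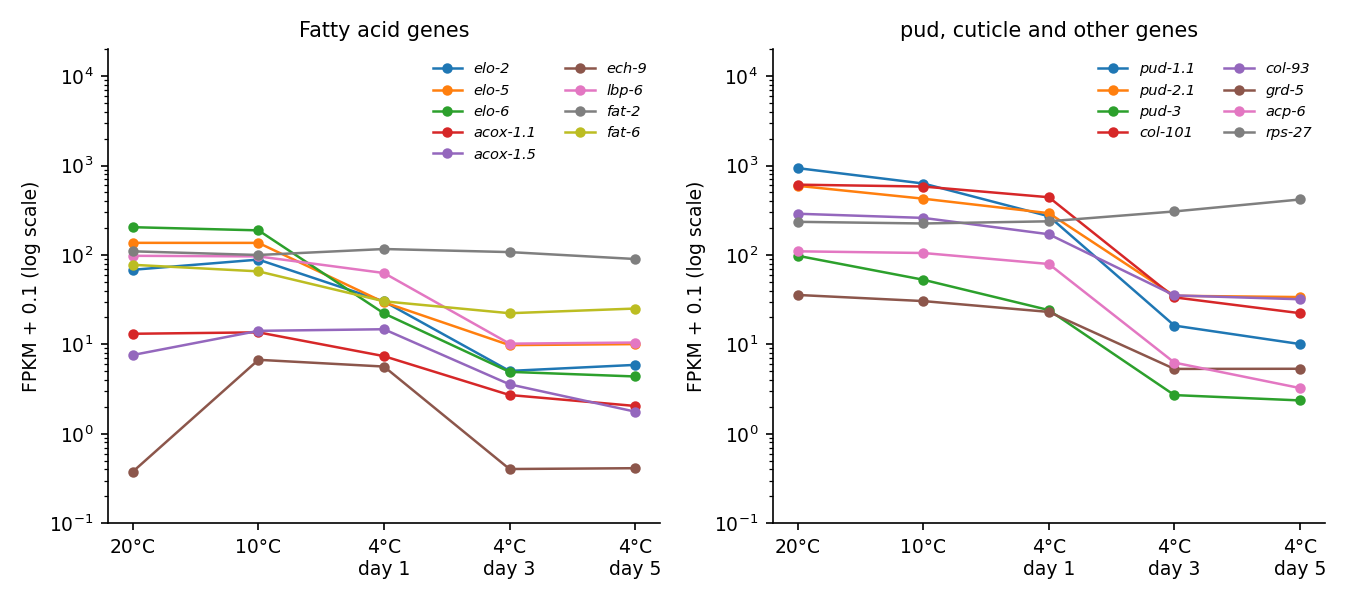
FPKM + 0.1 (log scale) in each of the 5 conditions for fatty acid genes (left) and for *pud*, cuticle and other genes (right), 1 point a pooled column. The elongase genes are lower at day 1 and lower again at day 3 while *fat-2* stays near level; *pud-1.1*, *pud-2.1* and *col-101* lie between 271 and 442 FPKM at day 1 and between 16.12 and 34.8 at day 3, and the ribosomal protein gene *rps-27* is shown as a gene that did not fall.

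The other detoxifying enzyme families, ABC transporters apart, had a higher share of falls than all genes. The median of 35 cytochrome P450 genes was -0.35, and -0.22 with 1 added to the FPKM. Of these genes, 9 fell (25.7%, against 4.65% of all genes) and none rose. They were *cyp-35C1* (-2.15), *cyp-25A2* (-2.05), *cyp-35A2* (-1.93), *cyp-25A1* (-1.85), *cyp-34A9* (-1.58), *cyp-35A3* (-1.43), *cyp-25A3* (-1.22), *cyp-35A5* (-1.18) and *cyp-34A8* (-1.12), and the 3 *cyp-25A* genes are neighbours on chromosome III (3832591 to 3839735). Of 36 UDP-glucuronosyltransferase genes, 7 fell (19.4%) and none rose, with a median of -0.42. *ugt-19* fell most (-2.50), from 5.27 to 0.85 FPKM. Of 22 genes for superoxide dismutases, catalases and peroxiredoxins, with a median of 0.00, 3 fell (13.6%): *gpx-7* (-1.71), *msra-1* (-1.51) and *ctl-2*. Of 34 ABC transporter genes, *pgp-10* alone rose (1.61), and none fell.

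Antimicrobial and C-type lectin genes had a higher share of falls than all genes (4.65%). Of 78 lysozyme, saposin-like and antimicrobial genes, 11 fell (14.1%) and none rose, with a median of -0.36, which was -0.22 without the filter. Of these, 4 were caenacin genes, which encode antimicrobial peptides: *cnc-8* (-2.18), *cnc-3* (-1.85), *cnc-4* (-1.68) and *cnc-11* (-1.24). *cnc-3*, *cnc-4* and *cnc-11* form a run on chromosome V (1442342 to 1448792). *cnc-11* had 0.05 FPKM at 20°C, 0.07 at 10°C, and 3.83, 1.56 and 1.37 on days 1, 3 and 5, so that its day 1 level was the highest. *nlp-33*, an antimicrobial peptide gene of the epidermis, had 17.04 FPKM at day 1 and 4.40 at day 3 (-1.93). *fipr-26* (-1.98), *fipr-22* (-1.63), *fipr-23* (-1.35), *irg-1* (-1.56), *dod-17* (-1.08) and *fip-6* (-1.005) were the others. Of 56 C-type lectin genes, 11 fell (19.6%), led by *clec-218* (-1.92) and *clec-83* (-1.37), and *clec-5* rose (1.06). The median of the 56 was -0.43, and that of the list without the filter was -0.023.

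Among the name families, acid phosphatases (*pho*) had the lowest median, -0.97, but were divided: 4 of 9 fell and another 4 were above 0, up to 0.77. *acp-6*, another acid phosphatase gene, had 110 FPKM at 20°C, 105 at 10°C, and 79.2, 6.15 and 3.15 on days 1, 3 and 5, a log2 ratio of -3.66. The next lowest families were *ech* (-0.94, with 9 of 9 below 0), *nspc* (-0.64, with 2 of 18 fallen), *acs* (-0.56) and the aquaporin genes *aqp* (-0.54, with 2 of 8 fallen). The highest after *nspa* and *cct* were the neuropeptide families *flp* (0.32) and *nlp* (0.28), with none of the *flp* genes past 2-fold.

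Other large falls were in genes without a known role. *Y46H3A.5* is described with the day 1 genes. *T13F3.6* (-3.64) overlaps *T13F3.8* over 100% of its exon bases, so the gene behind its reads cannot be told apart. *T28D6.3* (-3.48) had 88 reads at day 1 and 4 at day 3. *F49C12.7* (-3.26), *F15E6.4* (-2.996) and *C30G12.2* (-2.99) were each lower at day 3 than at 20°C. *E02C12.6* had 0.31 FPKM at 20°C, 1.25 at 10°C, and 2.02, 0.15 and 0.19 on days 1, 3 and 5 (-3.09). In all, 10 runs of at least 3 fallen neighbours, found in the same way as the runs of risen genes, held 32 genes.

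**Figure D4:**
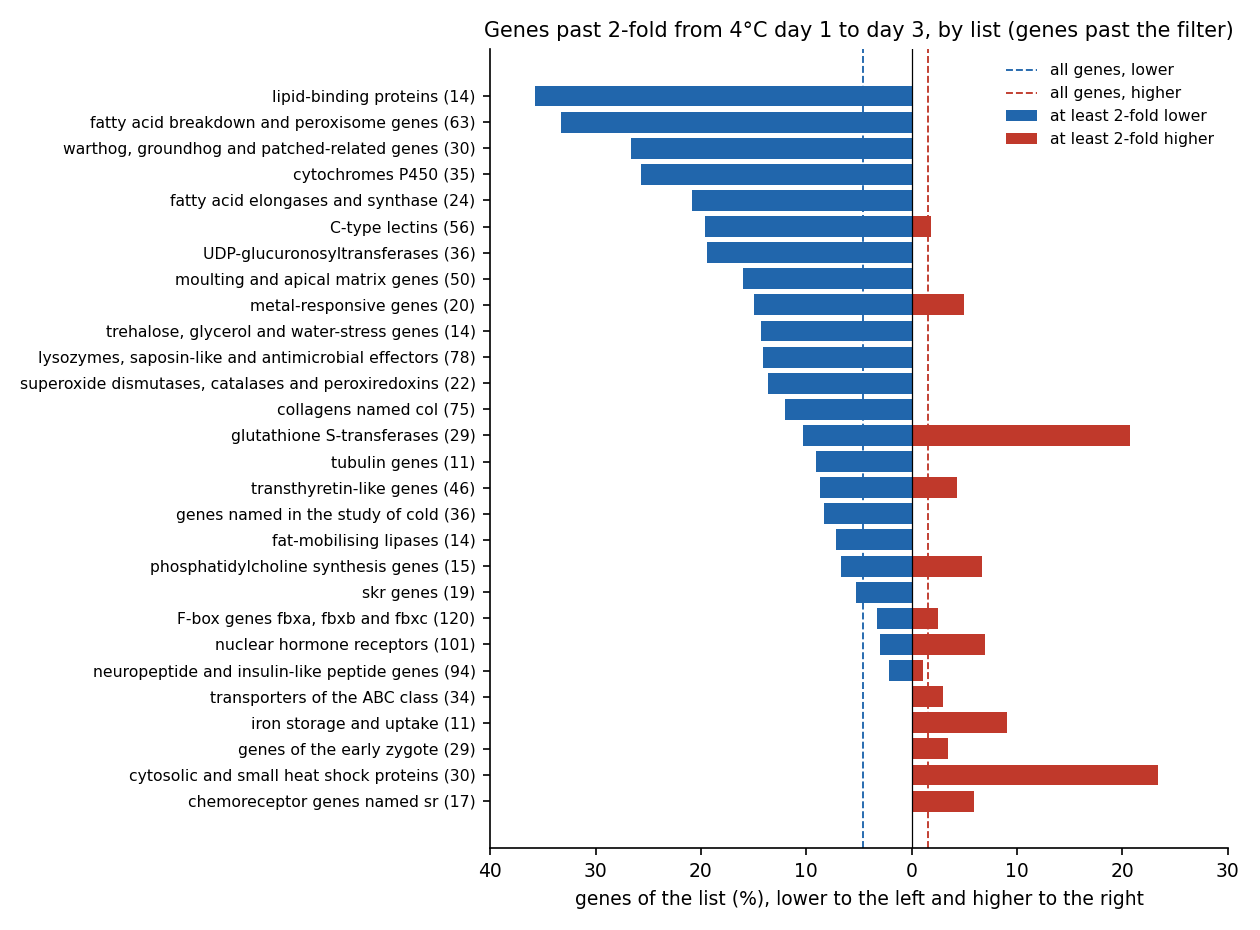
Percent of the genes of each list that fell (blue, to the left) or rose (red, to the right) by 2-fold from day 1 to day 3, for lists of at least 10 genes with any call; the number of genes past the filter is in brackets. The dashed lines mark the shares over all genes, 4.65% and 1.57%; lipid binding, fatty acid breakdown and the warthog to patched genes extend farthest to the left, and heat shock proteins and glutathione S-transferases farthest to the right.

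The lists for protein folding, degradation and secretion in the endoplasmic reticulum (ER) had no gene past 2-fold. None of 20 ER chaperone and disulfide isomerase genes rose or fell (median -0.03), nor did any of 15 sensors of the unfolded protein response and ER degradation genes (0.03) or of 41 secretory pathway genes (-0.01). *hsp-4*, the ER chaperone BiP induced by the IRE-1 and XBP-1 branch, had 162 FPKM at 20°C, 180 at 10°C, and 281, 145 and 157 on days 1, 3 and 5. Its log2 ratio from day 1 to day 3 was -0.96 [-1.001, -0.91], just short of 2-fold, and its level at day 3 was below that at 10°C. *hsp-3*, the second BiP gene, had a ratio of -0.22, and *xbp-1* had 115.2 FPKM at day 1 and 92.995 at day 3 (-0.31). *ire-1* had 32.7 and 30.7 FPKM (-0.09).

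Lists of the germ line and of basic cell functions had 1 call in all. All 6 vitellogenin genes, for yolk proteins, were below 0. No gene passed 2-fold among 6 vitellogenin genes (median -0.46), 18 eggshell (-0.16), 23 oocyte RNA-binding (-0.01), 51 sperm (-0.17), 36 meiosis (0.01), 35 germ granule (0.02) or 71 histone genes (0.15). Of 29 genes of the early zygote, *sdz-8* rose (1.51) while the other 28 were below 0, with a median of -0.36. Cytosolic ribosomal proteins had 81 of 82 genes above 0 with a median of 0.20, and proteasome subunits 30 of 33 with a median of 0.15; none of either passed 2-fold. Mitochondrial ribosomal proteins (67 genes), the respiratory chain (53), mitochondrial chaperones (18), translation factors (42), tRNA synthetases (31), nucleolar (39), autophagy (29) and cell cycle genes (40) had no gene past 2-fold, with medians between -0.04 and 0.12.

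The remaining lists had few calls. Neuropeptide and insulin-like genes had 74 of 94 above 0 with a median of 0.27; *nlp-48* rose (1.06), and *nlp-33* and *nlp-77* (-1.63) fell. Markers of neurons had 7 of 8 above 0, and a summed level of 111 FPKM at day 1 and 127 at day 3; their part in these ratios was not tested. Of 46 transthyretin-like genes, *ttr-23* (1.47) and *ttr-21* (1.00) rose and 4 fell, the most abundant being *ttr-15* (-1.04), from 323 to 157 FPKM. Of 120 F-box genes, 3 rose, led by *fbxa-71* (1.67), and 4 fell, led by *fbxa-141* (-2.07). *skr-3* fell (-1.58) among 19 *skr* genes, *tba-4* (-1.20) among 11 tubulin genes, and *hmit-1.2* (-2.02) and *hmit-1.3* (-1.33) among 14 trehalose, glycerol and water-stress genes. The serpentine-receptor name pattern held 17 genes past the filter, of which *srap-1* (1.47) alone rose. No gene passed 2-fold among the bZIP factors (21 genes), the insulin chain to *daf-16* (12), regulators of fat synthesis (16), the *pals* family (7), MATH and BATH genes (33), sarcomere genes (41), aspartic and cysteine proteases (20) and serpins (4).

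In the other tissue marker lists, 1 of 3 coelomocyte and 3 of 8 embryo markers passed the filter. Summed levels at day 1 and day 3 were 684 and 580 FPKM for body wall muscle, 64.6 and 71.9 for the pharynx, 1473 and 1517 for the germ line, and 20.7 and 17.6 for sperm. No marker of these tissues passed 2-fold.

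Whether the first day's response was undone by day 3 was read from the levels at 10°C, day 1 and day 3. The comparisons share the 10°C and day 1 columns, so a column's own error enters both. Most of the response was kept. Of the 577 genes raised at day 1, 452 (78.3%, against 6.39% of all genes) were still at least 2-fold above 10°C at day 3, and 124 (21.5%) were back within 2-fold of it. A single gene, *B0205.13*, had passed to 2-fold below 10°C. Seen from day 1, 70 of the raised genes (12.1%, against 1.57% of all genes) rose a further 2-fold and 428 (74.2%) stayed within 2-fold. Another 79 (13.7%, against 4.65% of all genes) fell 2-fold, and the median log2 ratio of the raised genes was 0.03.

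Of the 570 genes lowered at day 1, 511 (89.6%, against 10.8% of all genes) were still at least 2-fold below 10°C at day 3 and 59 (10.4%) were back within 2-fold. From day 1, 106 (18.6%, against 4.65% of all genes) fell a further 2-fold and 453 (79.5%) stayed within 2-fold. Another 11 rose 2-fold (1.93%, close to the 1.57% of all genes), and the median of the lowered genes was -0.36. Of all 489 genes that fell between day 1 and day 3, 79 had been raised at day 1, 106 lowered, and 304 had stayed within 2-fold; of the 165 that rose, 70 had been raised, 11 lowered, and 84 had stayed within 2-fold.

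**Figure D5:**
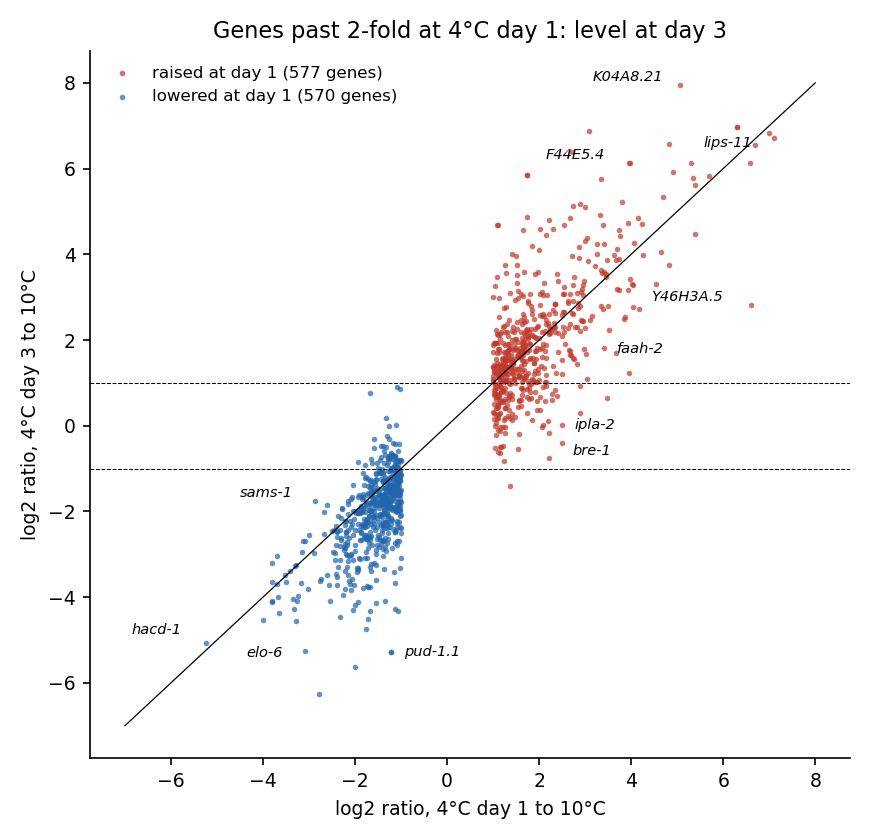
Log2 ratio to 10°C at day 1 (x axis) and at day 3 (y axis) for the 577 genes raised (red) and 570 lowered (blue) at day 1, 1 point a gene. Points on the solid line had the same level on both days and points between the dashed lines were within 2-fold of 10°C at day 3, which holds for 124 raised and 59 lowered genes.

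The largest rises of the first day differed in what followed. *lips-11*, a lipase-related gene, had 0.11 FPKM at 20°C, 0.72 at 10°C, and 113, 85.9 and 45.01 on days 1, 3 and 5, a log2 ratio of -0.39 from day 1 to day 3. *lips-13* (-0.46), *fbxa-163* (-0.16), *F19B10.13* (-0.14), *nspe-6* (0.13), *H39E23.3* (0.25), *T23E7.6* (0.44), *C08E8.3* (0.65), *numr-1* (0.66), *fipr-24* (0.83) and *K10D3.8* (-0.90) likewise stayed within 2-fold of day 1. The values of *numr-2* equal those of *numr-1*. *K04A8.21* and *clx-1* rose further, *clx-1* from 3.71 to 12.7 FPKM (1.75).

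*Y46H3A.5*, also among the 15 largest rises of the first day, went the other way. It had 0.06 FPKM at 20°C, 0.23 at 10°C, and 32.3, 2.24 and 2.30 on days 1, 3 and 5. From day 1 to day 3 it fell by 3.80 on the log2 scale, and it stayed above its level at 10°C.

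Other genes raised at day 1 had fallen by day 3. *bre-1*, a GDP-mannose dehydratase gene of fucose synthesis, had 6.49 FPKM at 20°C, 16.99 at 10°C, and 96.4, 12.8 and 8.01 on days 1, 3 and 5, a log2 ratio of -2.90. *ipla-2*, a phospholipase gene, had 5.96, 14.9, 84.5, 15.1 and 11.8 FPKM in the same order (-2.48). Both stood at day 3 within 2-fold of 10°C. *ipla-2* forms a run with *lec-8*, a galectin gene (-1.80), and *scav-5* on chromosome X (9833352 to 9861738), and all 3 fell. *faah-2*, for a fatty acid amide hydrolase, had 6.66 FPKM at 20°C, 17.2 at 10°C, and 183, 60.35 and 16.47 on days 1, 3 and 5 (-1.60), still above 10°C at day 3. *B0205.13* had 4.78, 19.8, 51.1, 7.40 and 13.2 FPKM in the same order (-2.77), and at day 3 was more than 2-fold below 10°C. *nhr-247*, *arrd-8* (-2.60), *skr-3*, *irg-1*, *cdr-4*, *cnc-4*, *cnc-11*, *acs-17* and *cbp-3* (-1.66) were also raised at day 1 and fell by day 3.

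The genes most lowered on the first day stayed low. *hacd-1*, a hydroxyacyl-CoA dehydrogenase gene, had 25.3 FPKM at 20°C, 43.4 at 10°C, and 1.058, 1.203 and 0.816 on days 1, 3 and 5, a log2 ratio of 0.17 [-0.36, 0.70]. *ugt-44* had 31.03 FPKM at 10°C, 2.12 at day 1 and 1.69 at day 3 (-0.31). The others among the 15 largest first-day falls had at most 58 reads at day 1, and log2 ratios from -0.95 (*cpt-5*) to 0.65 (*C09G9.5*), none past 2-fold. At 2 to 5 reads, as for *Y116A8C.19*, *Y116A8C.20*, *C35D6.4* and *F38C2.7*, a change by 2-fold was not detectable at this depth.

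The 11 lowered genes that rose, a share close to that of all genes, were *hil-7*, *nhr-130*, *sams-1*, *sma-10*, *btb-9*, *ZC116.1*, *D2023.1*, *C32D5.6*, *F47E1.2*, *T07D3.4* and *Y59H11AR.4*. Of these, *hil-7* had the highest level at day 3, 7.86 FPKM after 3.62 at day 1, and *sams-1* the next.

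A list drawn up by name for the study of cold had 36 genes past the filter. Of these, 3 fell, all *fipr* genes given above, and none rose, with a median of -0.22. The list does not cover every gene that the study names: *cbp-3*, given above as fallen, is not among its calls. *zip-10*, a bZIP factor gene tied to death in the cold, had 2.26 FPKM at 10°C, and 15.5, 14.5 and 10.9 on days 1, 3 and 5 (-0.09).

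Near the threshold, *ttr-21* (1.00), *F19C7.2* (1.00) and *C32F10.4* (1.01) were the smallest rises counted, and *nspa-6*, *nspa-7* and *C45B2.2*, which came short of 2-fold by less than 0.01, were the nearest not counted. For the falls, *Y51A2D.13*, *fip-6* (-1.003 and -1.005) and *nhr-41* (-1.01) were inside, and *fbxa-128*, *cpn-3* and *F30A10.13*, which came short of 2-fold by less than 0.01, outside.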

How the data were processed

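Total RNA of 10 whole-animal samples was sequenced (ScriptSeq v2). Per the labels and the study's methods, the authors ran the ORFik ribosome profiling pipeline, with fastp (0.23.4) and STAR (2.7.11b) on WBcel235, estimated expression with DESeq2 (1.42.1), and deposited FPKM per transcript, 1 column a condition. The annotation release, strand setting and pooling are not given in the sources used here. A further column, for 25°C, matches no sample and was not used (1 column).

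Reads were recovered as FPKM times exon length times the column's total, with lengths and positions from Ensembl release 115 of WBcel235, whose identifiers matched. Ratios used a pseudocount of 0.1, a filter at an FPKM of 1 in any condition, and a 2-fold threshold. Had the columns held replicates, limma would have been used; pooled columns allow no test. The scripts were checked on simulated data. Intervals and the floor of 3 counts cover counting error only.

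The members and the 59 gene lists, set by name patterns, were chosen with earlier results of these data known. The chemoreceptor pattern also matched serpins and other genes, and some lists share genes. Named genes are the 15 largest rises and falls with at least 50 reads at the higher day (1 for each set of identical values), the same from 10°C to day 1, list members past 2-fold, and the extreme families; some list members are only counted, and the largest members of lists without a call, which the rule also covers, are mostly given as medians. *F44E5.4*, *eol-1*, *bre-1*, *ipla-2*, *faah-2*, *arrd-8*, *cbp-3*, *B0205.13* and the runs were chosen after their values were seen. The work used matplotlib 3.10.9, scipy 1.17.1, pandas 2.3.3, numpy 2.4.6 and Python 3.11.15.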

Additional observations from a re-analysis of the deposited data

How the results depend on the processing

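No paired analysis was possible because the deposited values hold 1 column for each condition, with no replicate number; leaving out a replicate was not possible either. The 12 alternatives were tried on the counts (165 risen, 489 fallen, 124 raised and 59 lowered genes back within 2-fold of 10°C); a count is named where it moved by over 1.5 times. With a pseudocount of 1 there were 83 risen, 237 fallen and 15 lowered genes back. Without the filter there were 284 risen and 147 lowered genes back. Filtered at an FPKM of 5, the 4 counts were 83, 285, 72 and 12. At 1.5-fold they were 404, 1124, 200 and 114, and at 4-fold 43, 81, 50 and 11. Falls outnumbered rises under all of these settings. Of the 66 named genes tried, *Y116A8C.19*, within 2-fold throughout, changed sign with expression groups subtracted and no called gene did; *B0507.7* (0.81) and *sams-1* (0.93) fell under 2-fold with a pseudocount of 1. The cause of these shifts was not tested. At the few reads of the lowest genes, 2-fold changes were not detectable.

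Medians of lists are named where they moved by over 0.1 (log2). With a pseudocount of 1: early zygote -0.18, *col* -0.36, moulting -0.13, fatty acid breakdown -0.35, UDP-glucuronosyltransferases -0.28, cytochromes P450 -0.22, C-type lectins -0.30 and warthog to patched -0.23. Without the filter: *col* -0.14, other collagens -0.23, moulting -0.029, fatty acid breakdown -0.35, iron -0.16, UDP-glucuronosyltransferases -0.28, glutathione S-transferases 0.16, bZIP -0.058, C-type lectins -0.023, antimicrobial -0.22, *pals* 0.26, proteases -0.12, chemoreceptors 0.0, warthog to patched -0.12 and the genes of the study of cold -0.11. With the filter at 5: sperm -0.27, moulting -0.99, UDP-glucuronosyltransferases -0.32, cytochromes P450 -0.50, glutathione S-transferases 0.32, ABC transporters -0.034, nuclear hormone receptors 0.020 and warthog to patched -1.18. Summed over transcripts: iron -0.19, UDP-glucuronosyltransferases -0.54, *pals* 0.28 and warthog to patched -0.28. With at least 50 reads: glutathione S-transferases 0.15. With expression groups subtracted: sperm -0.064, early zygote -0.25, cytochromes P450 -0.23, F-box -0.065 and warthog to patched -0.28. In 13 of 59 lists the sign of the median changed under some setting; the median of none of these was farther from 0 than 0.066.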
